A study of Rattus norvegicus with 8 samples.

Results

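The brain transcriptome of rats after the right middle cerebral artery was transiently occluded (MCAO) was compared with that after a sham operation, both without drug, to describe the early response to ischaemia across genes. The members were the 4 arrays whose source labels read vehicle, 2 after MCAO and 2 after sham surgery, of 8 arrays in all. The animals were male Wistar rats, 7 weeks old and weighing 160 to 200 g. All of the rats on these 4 arrays had received the vehicle, 0.9% saline, under the skin in 2 daily doses for 5 days before surgery. In the MCAO group the artery was then blocked for 90 min and blood flow was restored, and the sham group was operated on without occlusion. RNA came from a segment of the right hemisphere 2 h after MCAO or sham, per the labels, which do not say whether the time ran from occlusion or from reperfusion. Each array held the pooled RNA of 2 rats, so a group stood for 2 pools and 4 rats, and single animals could not be told apart. The other 4 arrays were of rats labelled as pretreated with candesartan, an angiotensin AT1 receptor blocker, again 2 pools after sham and 2 after MCAO. The dose was 0.1 mg/kg on the same schedule, but the treatment protocol of MCAO candesartan pool 2 named no pretreatment. These 4 arrays entered the model to estimate the spread between pools and were set beside the vehicle contrast where stated.

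When an artery of the brain is blocked, neurons lose their supply of oxygen and glucose, depolarise and release glutamate, and calcium enters the cells. Within minutes to hours this switches on immediate early genes, whose promoters are already bound by factors such as SRF and CREB, and protein damage releases the heat shock factor HSF1 to transcribe chaperone genes. Chemokines, prostaglandin synthesis and later gene programmes follow, and protein synthesis is held back through phosphorylation of the initiation factor eIF2.

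The values were signal intensities of Affymetrix RAE 230A probe sets on a linear scale in arbitrary units. Differences are on the log2(signal + 369.9) scale, where the added offset is the 20th percentile of all values, and on this scale changes of dim genes come out too small. A probe set was tested if at least 2 of the 8 signals were above 916.3, as was the case for 10310. The arrays had the same trimmed mean (within 0.000426%), and their median signals ran from 1257.7 to 1378.2. The 2 pools of either vehicle group differed by a median of 0.13 (log2, absolute) over all probe sets, against 0.15 and 0.23 in the candesartan groups. MCAO candesartan pool 2 stood apart, with a mean correlation of 0.951 with the other arrays. Its treatment protocol named no pretreatment, and its group came from its description. The tissue label matched the markers: all 17 pan-neuronal markers on the array and 23 of 24 astrocyte markers passed the filter, while 4 of 13 markers of red cells, neutrophils and lymphocytes did. With 2 pools against 2, an exact permutation test of a single gene cannot go below p = 0.333 (two-sided). All adjusted p-values below are therefore from limma, a linear model that shares information on the spread across genes, with Benjamini-Hochberg adjustment over the 10310 probe sets, and they measure only the spread between these pools.

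In limma's test 27 probe sets rose after MCAO (0.262% of those tested) and 0 fell (0%) at an adjusted p under 0.05. With so small a share, a list without a called member is no result about that list. Without adjustment, 467 were higher (4.53%) and 259 lower (2.51%) at p under 0.05. The median difference over all probe sets was 0.01. Both MCAO pools lay above both sham pools for 2537 probe sets (24.6%) and below them for 2126 (20.6%), and these shares are the background against which the counts below are read. By size, 200 of the non-overlapping probe sets were higher by over 0.5 (log2) and 90 were lower by as much, and 29 were higher and 2 lower by over 1. When only the 4 vehicle arrays were fitted, 70 probe sets rose (0.679%) and 23 fell (0.223%), among them all 27 of the fit to 8 arrays. Leaving out any single vehicle array left 7 to 9 probe sets higher. Leaving out MCAO candesartan pool 1 gave 41. Of the 27, 6 passed the signal filter through MCAO arrays alone. The 24 called probe sets with a single gene symbol stood for 22 genes.

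**Figure D1:**
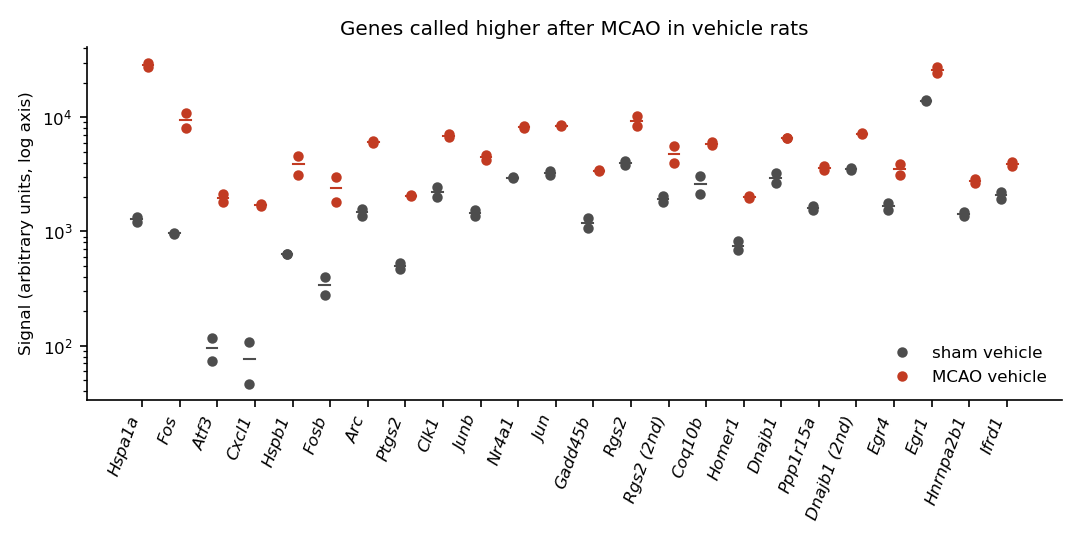
Signal (arbitrary units, log axis) of each probe set that limma called higher after MCAO in vehicle rats and that carries 1 gene symbol, ordered by the log2 difference; grey points are the 2 sham pools, red points the 2 MCAO pools, and short bars their means. The groups do not overlap for any of the genes shown, and Hspa1a, Fos, Atf3 and Cxcl1 are farthest apart.

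**Figure D2:**
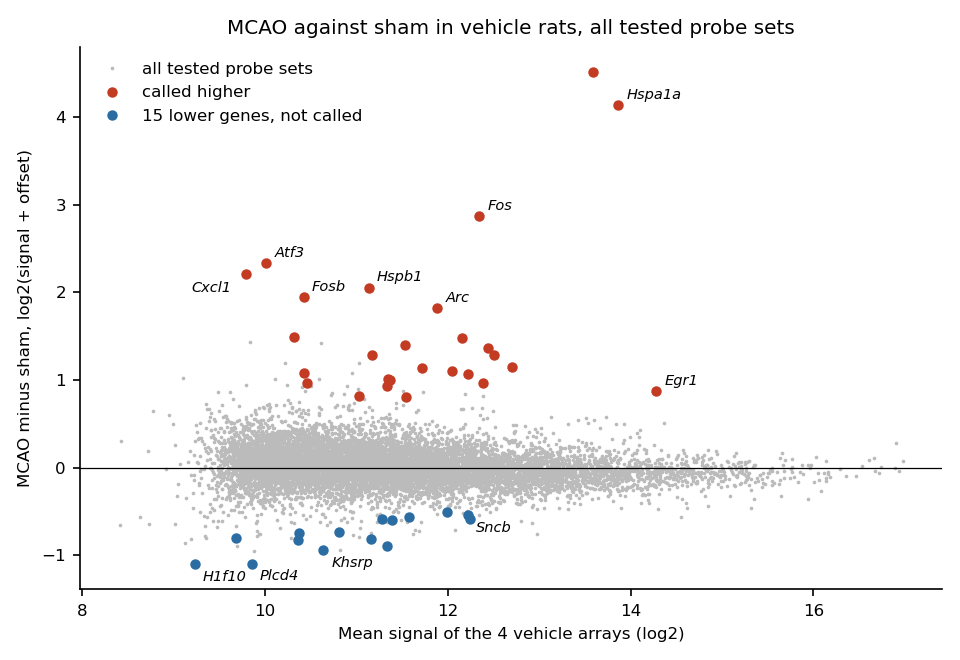
MCAO minus sham difference on the log2(signal + 369.9) scale against the log2 mean signal of the 4 vehicle arrays, for 10310 probe sets (grey), the 27 called higher (red) and the 15 lower genes described in the text, none of them called (blue). The called probe sets reach 4.51 above 0, while the lowest of the 15 lie at -1.10.

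AP-1 is a dimer of Fos and Jun family proteins, and its genes are the textbook immediate early genes of stimulated neurons. Fos gave 955 and 965 in the sham pools and 10899 and 7984 in the MCAO pools. The groups lay far apart, by 2.87 ± 0.16 (log2, SE) at an adjusted p of 3.2e-05. Fosb, its close relative, went from 278 and 398 to 3007 and 1806 and rose by 1.94 ± 0.27 (adjusted p = 0.0134). Here the MCAO pools differed more from each other than the sham pools did. Atf3, a stress-induced factor that pairs with Jun proteins, was near the floor of the array after sham, at 116 and 73, and reached 1821 and 2118 after MCAO. Its rise was 2.33 ± 0.24 (adjusted p = 0.00182), and its sham signals lay below the offset. Junb was at 1375 and 1549.7 and then 4706 and 4243, a rise of 1.40 ± 0.13 (adjusted p = 0.00119). Jun was read by 3 probe sets that did not agree in size. The called one went from 3345 and 3124 to 8292 and 8472, a rise of 1.28 (adjusted p = 0.00783). The other probe sets differed by 0.84 (adjusted p = 0.542) and by 0.33 (adjusted p = 0.74), also without overlap of the pools. Of the list of AP-1 members and Atf3, 8 genes were tested, each counted by its brightest probe set, which for Jun is not the called one. Of these, 4 of 8 rose, 7 of 8 had MCAO pools above sham pools and the median was 0.96, and 2 of the 8 had passed the filter only through the MCAO vehicle arrays. Fosl2, named after its values were seen, did not pass it, with signals of 426 and 139.5 after sham and 898 and 957 after MCAO. Arc, Fos, Hspa1a, Hspb1 and Junb were the named genes called under every alternative setting and with every single array left out. Egr1, Egr4 and Ifrd1 were called in 2 of the 8 fits with an array left out.

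The Egr zinc finger factors, the Nr4a orphan nuclear receptors and the Klf factors are separate families that include immediate early transcription factors. They were counted in a shared list, which also holds other early genes such as Ier5. Nr4a1 stood at 2976 and 2909.9 after sham and at 7977 and 8324 after MCAO, a rise of 1.36 ± 0.19 (adjusted p = 0.0134). Both MCAO pools agreed closely. Egr1, which is also strongly expressed in resting cortex, went from 14018 and 13792 to 27486 and 24231 and rose by 0.87 ± 0.13 (adjusted p = 0.0235). Egr4 went from 1546 and 1761 to 3867 and 3148 and rose by 0.93 (adjusted p = 0.0248). Further early genes had higher signals after MCAO without a call. Egr2 gave 1421 and 1482 after sham against 2593 and 2394 after MCAO (difference 0.65, adjusted p = 0.159), and Ier5, an immediate early regulator linked to the heat shock response, 3244 and 3689.8 after sham against 5567 and 5874 after MCAO (0.67, adjusted p = 0.0598). Ier3, an early gene tied to cell survival, gave 726 and 1064 after sham and 2538 and 1828 after MCAO (1.01, adjusted p = 0.0852). In all, 3 of 20 tested members of the list rose, 16 of 20 had MCAO pools above sham pools and 0 had them below. The median was 0.53 against 0.01 over all probe sets. The filter was passed only through the MCAO vehicle arrays by 1 of the 20. Members in which the pools overlapped were Nr4a2, Egr3, Klf9 and Klf15, which are named here after their values were seen. Egr3 was at 811 and 1038 after sham against 835 and 1183 after MCAO.

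Other activity-induced genes, among them ones whose products act at synapses or are secreted, split more widely. Arc, whose protein controls the removal of AMPA receptors from synapses, gave 1353 and 1576 after sham and 6179 and 5995 after MCAO. It rose by 1.82 ± 0.14 (adjusted p = 0.000162), with the pools of a group close together. Ifrd1, a transcriptional co-regulator, went from 2220.0 and 1927 to 4035 and 3765 and rose by 0.81 (adjusted p = 0.0248). Homer1 encodes a scaffold of metabotropic glutamate receptors whose short form is activity-induced, and it was read by 5 probe sets. The called one rose from 819 and 684 to 2031 and 1947, by 1.07 (adjusted p = 0.0235). The next went from 4213 and 3763 to 7047 and 6192, a difference of 0.68 that was not called (adjusted p = 0.182). The other 3 probe sets differed by between -0.13 and 0.30. Which transcript each probe set reads is not given in the sources used here. Tiparp, a mono-ADP-ribosyltransferase, gave 1791 and 2295 after sham against 3401 and 4143 after MCAO (0.78, adjusted p = 0.343), and Btg1, an antiproliferative factor, 6328 and 5827 after sham against 8169 and 9070.3 after MCAO (0.48, adjusted p = 0.233). Bdnf, the activity-regulated neurotrophin, was at 1345 and 1139.8 after sham against 1902 and 1221 after MCAO, so its pools overlapped (difference 0.24 ± 0.20, adjusted p = 0.876). Of 16 members tested, 2 rose by the brightest probe set, 8 had MCAO pools above and 2 below the sham pools, and the median was 0.19.

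Among inducible brakes on signalling, 1 gene rose. It was Rgs2, which switches off G protein signalling downstream of Gq-coupled receptors, and it rose on both of its probe sets. The brighter gave 4157 and 3828 after sham and 8387 and 10262 after MCAO, a rise of 1.15 ± 0.13 (adjusted p = 0.00489), and the other rose by 1.14 (adjusted p = 0.0235). Spry2, an inhibitor of receptor tyrosine kinase signalling to ERK, had a larger difference but uneven pools, 853 and 526 after sham and 2608 and 2287 after MCAO. It differed by 1.43 ± 0.32 and was not called (adjusted p = 0.18). Zfp36l1, an RNA-binding protein that hastens decay of AU-rich transcripts, went from 3314 and 3178 to 6400.2 and 5769 (0.83, adjusted p = 0.0791). Nfil3, a bZIP repressor, went from 1421 and 1371 to 2589 and 2311 (0.67, adjusted p = 0.259). Of 20 feedback regulators tested 1 rose, 15 had MCAO pools above and 1 below the sham pools, and the median was 0.43. The filter was passed only through the MCAO vehicle arrays by 1 of the 20.

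The stress-inducible heat shock genes held the steepest rise of a named gene. Hspa1a, the inducible cytosolic chaperone of its family, gave 1343 and 1205 in the sham pools and 27296 and 29810.3 in the MCAO pools, a ratio of mean signals of 22.4. On the log2 scale it rose by 4.14 ± 0.29 (adjusted p = 0.000105). A probe set with 2 gene symbols, left unnamed for that reason, was the only one to rise further, from 856 and 553 to 24083 and 23806. Hspa1a has a near-identical copy in the genome, so the signals of the copies on these probe sets cannot be told apart. Hspb1, a small heat shock protein that holds unfolding proteins and stabilises actin, went from 633 and 634 to 4592 and 3133. It rose by 2.05 ± 0.20 (adjusted p = 0.0014), and the MCAO pools were further apart than the sham pools. Dnajb1, the co-chaperone that delivers clients to inducible chaperones, rose on both probe sets. Its brighter set gave 3563 and 3419.8 after sham against 7094 and 7296 after MCAO, a rise of 0.97 (adjusted p = 0.00491), and the other rose by 1.07 (adjusted p = 0.0134). Cryab, a small heat shock protein of astrocytes and oligodendrocytes, gave 6546 and 7730.4 after sham against 11058 and 10630.5 after MCAO, without overlap and without a call (0.58, adjusted p = 0.113). Of 18 tested members of the HSF1 list 3 rose, 15 had MCAO pools above and 0 below the sham pools, and the median was 0.27. Hspb1 was the 1 member of the 18 that passed the filter only through the MCAO vehicle arrays.

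Chaperones that cells express all the time had small differences, most of them below 0. None of 24 constitutive chaperones tested was called in limma's test, 0 had an unadjusted p under 0.05 on the higher side and 1 on the lower side. Their MCAO pools lay below the sham pools in 13 of 24 and above in 2, and the median was -0.10. Tcp1 and Cct8, subunits of the chaperonin that folds actin and tubulin, gave 20523 and 19869.5 against 15677 and 16828 (-0.31, adjusted p = 0.601) and 4279 and 3890.2 against 3090.4 and 3218 (-0.34, adjusted p = 0.731). Both therefore had lower signals after MCAO in each pool, by amounts that did not pass the test.

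Among genes that respond to stalled translation and to unfolded proteins, 1 rose. Ppp1r15a, which recruits the phosphatase that reverses eIF2 phosphorylation, went from 1674 and 1524 to 3456 and 3749 and rose by 1.01 ± 0.14 (adjusted p = 0.0134). Its constitutive relative Ppp1r15b gave 1813 and 1601 after sham against 1992 and 2494 after MCAO (0.33, adjusted p = 0.705). Atf4, the transcription factor translated when eIF2 is phosphorylated, gave 11849.5 and 13279 after sham against 15255 and 16422 after MCAO (0.33, adjusted p = 0.554). Hspa5, the chaperone of the endoplasmic reticulum, gave 11507 and 9694 after sham against 12650.5 and 12827 after MCAO (0.26, adjusted p = 0.705). Of 31 members of the integrated stress and unfolded protein response 1 rose, 12 had MCAO pools above and 4 below the sham pools, and the median was 0.08.

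Gadd45 proteins are small stress sensors that bind cell cycle and MAP kinase regulators. Gadd45b gave 1315 and 1066 after sham and 3458 and 3352 after MCAO and rose by 1.28 ± 0.17 (adjusted p = 0.00897). Gadd45g gave 1725 and 2249 after sham against 3187 and 3922 after MCAO (0.74, adjusted p = 0.117), and Gadd45a 1368 and 1282 after sham against 1603 and 1869.6 after MCAO (0.31, adjusted p = 0.749). The 3 relatives thus lay in the same direction and only Gadd45b passed the test. Mcl1, an antiapoptotic Bcl-2 family member with a short-lived transcript, gave 3043 and 3261 after sham against 4019 and 4334 after MCAO (0.37, adjusted p = 0.542). Cdkn1b, a cell cycle inhibitor, differed by 0.37 (adjusted p = 0.723). Of 22 growth arrest and death genes tested 1 rose, 11 had MCAO pools above and 1 below, and the median was 0.18. A further 13 of the 35 genes of this list on the array did not pass the filter, and 1 of the 22 passed it only through the MCAO vehicle arrays.

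Among RNA processing genes, a splicing kinase rose most. Clk1, which phosphorylates SR splicing factors and controls the splicing of its own transcript, went from 2460.5 and 2008 to 7120.1 and 6650.2 and rose by 1.48 ± 0.16 (adjusted p = 0.00278). Clk4, its closest relative, gave 1304 and 1187 after sham against 2340.5 and 2144 after MCAO (0.69, adjusted p = 0.532). Tra2a, a splicing activator, gave 2946 and 2638 after sham against 3785 and 3801 after MCAO (0.40, adjusted p = 0.49), and Sf3b1, a core part of the U2 particle, differed by 0.35 (adjusted p = 0.682). Hnrnpa2b1, an RNA-binding protein of the spliceosome and of transport granules, rose on one probe set, from 1351 and 1480.2 to 2636 and 2893 (0.81, adjusted p = 0.0431). Its brighter probe set had overlapping pools (0.14, adjusted p = 0.931), so the probe sets of this gene disagreed. The call of Hnrnpa2b1 was held in 6 of 13 settings and in 2 of 8 fits with an array left out. Of 30 splicing genes 1 rose by the brightest probe set, 14 had MCAO pools above and 1 below the sham pools, and the median was 0.10. Among called genes outside the lists, Coq10b, a mitochondrial protein needed for coenzyme Q function, gave 3054 and 2110.1 after sham and 5675 and 6074 after MCAO and rose by 1.10 ± 0.15 (adjusted p = 0.0134).

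Among inflammatory genes, 2 rose. Ptgs2, the inducible cyclooxygenase of prostaglandin synthesis, gave 526 and 467 after sham and 2091 and 2021 after MCAO and rose by 1.49 ± 0.19 (adjusted p = 0.00783). Cxcl1, a chemokine that draws neutrophils, was at 107 and 46.5 after sham against 1737 and 1654 after MCAO, and rose by 2.21 ± 0.31 (adjusted p = 0.0134) from sham signals below the offset. Ccl2, the chemokine for monocytes, had the same form, 47 and 86.5 after sham against 1114 and 795 after MCAO, but did not pass the filter. In the fit without a filter it differed by 1.59 ± 0.22 (adjusted p = 0.0648). Ccl3, another chemokine of microglia, gave 1413 and 1059.8 after sham against 1867 and 2723 after MCAO (0.72, adjusted p = 0.476). The cytokine genes Il1b, Tnf and Il6 did not pass the filter either, and their pools overlapped. Il1b gave 610.0 and 675 after sham against 879.8 and 664 after MCAO. Tnf gave 340.0 and 239.5 after sham against 273 and 414 after MCAO, and Il6 gave 236 and 244 after sham against 244 and 396 after MCAO. Nfkbia, the inhibitor of NF-kB and itself its target, gave 2555 and 4199 after sham against 2991 and 3108 after MCAO, and its pools also overlapped (-0.10, adjusted p = 0.962). Icam1, an adhesion molecule of endothelium, gave 547 and 270.4 after sham against 919 and 1126 after MCAO (0.86 ± 0.32, adjusted p = 0.565), and Timp1, an inhibitor of matrix proteases, 1306 and 936 after sham against 2386 and 2199 after MCAO (0.85, adjusted p = 0.562). Adamts1, a secreted protease, gave 1089 and 669.9 after sham against 2077 and 1893 after MCAO (0.93, adjusted p = 0.149). Of the 14 cytokine and chemokine genes that passed the filter, out of 36 on the array, 1 rose and 3 lay above and 3 below sham without overlap. The one that rose, Cxcl1, passed the filter through the MCAO vehicle arrays only. Of the 22 inflammatory mediators that passed, out of 34, 1 rose and 10 lay above and 2 below, and 3 of the 22 passed through the MCAO vehicle arrays only.

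Hypoxia and metabolic genes were tested because oxygen supply is what occlusion cuts. Hmox1, haem oxygenase, which degrades haem under oxidative stress, gave 785 and 987 after sham against 1947 and 2078 after MCAO (0.93 ± 0.19, adjusted p = 0.117). Vegfa, the angiogenic factor induced by HIF, gave 2386 and 2634 after sham against 2728 and 3169 after MCAO (0.20, adjusted p = 0.856). Cited2, a HIF-induced inhibitor of HIF, was read by 2 probe sets, of which the dimmer gave 2268 and 1972 after sham against 3938 and 3462 after MCAO (0.71, adjusted p = 0.0791) and the brighter 4085 and 4626 after sham against 6265 and 7017 after MCAO (0.57, adjusted p = 0.379). P4ha2, a collagen prolyl hydroxylase subunit, differed by 0.42 (adjusted p = 0.476), and Bhlhe40, a hypoxia-responsive clock repressor, by -0.52 (adjusted p = 0.508). None of the 23 HIF pathway genes tested was called by limma, 6 were higher and 1 lower at an unadjusted p under 0.05, 11 had MCAO pools above and 3 below the sham pools, and the median was 0.09. In glycolysis 0 of 20 were called, 1 was higher and 0 lower at an unadjusted p under 0.05, and the median was -0.003. Pfkfb3, which makes the activator of phosphofructokinase, gave 780.3 and 737 after sham against 1324 and 1099.8 after MCAO (0.48, adjusted p = 0.562). Among 26 oxidative stress genes 0 were called, 2 were higher and 1 lower unadjusted, and the median was -0.02. Prdx6, a peroxidase of astrocytes, was the lower one, at 11415 and 12341 after sham against 8344 and 8527 after MCAO (-0.48, adjusted p = 0.466).

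Stretches of promoters are shown because the called genes rose together. RefSeq (GRCr8) promoter sequences, 250 bases before to 50 after the start site, were found for 18 of the 22 called genes; those of Fos, Arc, Atf3 and Jun were not found. The motifs were sought on both strands: a heat shock element (GAANNTTC or TTCNNGAA), a CRE (TGACGTCA), its core (TGACG, or CGTCA on the other strand, which also lies inside every CRE), an AP-1 site (TGANTCA), a CArG box and an NF-kB site. The stretches that follow lie upstream of the start site on the gene's own strand, 5′ to 3′, with the matches in capitals. In the promoters of 3 called genes the capitals mark a heat shock element, namely Hspb1 (chr12:26432383-26432450, minus strand), Dnajb1 (chr19:41431142-41431172, minus strand) and Ptgs2 (chr13:64713846-64713893, plus strand).
Hspb1: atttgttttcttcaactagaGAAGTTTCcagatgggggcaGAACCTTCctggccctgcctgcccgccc
Dnajb1: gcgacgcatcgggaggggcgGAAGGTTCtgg
Ptgs2: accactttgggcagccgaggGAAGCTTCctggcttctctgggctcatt
In Ppp1r15a (chr1:105139635-105139682, minus strand) they mark a whole CRE, in Egr4 (chr4:119607903-119608015, minus strand) 2 CRE cores, and in Cxcl1 (chr14:17479375-17479425, minus strand) 2 overlapping matches to the NF-kB site.
Ppp1r15a: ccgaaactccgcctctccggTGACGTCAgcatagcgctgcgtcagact
Egr4: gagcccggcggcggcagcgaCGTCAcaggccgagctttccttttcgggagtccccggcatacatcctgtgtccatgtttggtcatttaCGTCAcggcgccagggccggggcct
Cxcl1: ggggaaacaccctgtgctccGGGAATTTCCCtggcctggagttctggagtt

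The Egr4 stretch also holds a match to the NF-kB site between its CRE cores, and Dnajb1 has another heat shock element after its start site. The CRE core was present in 13 of the 18 promoters, against 21.2% of the 33469 promoters in the table. It was found 4 times in Ppp1r15a, where the CRE counts on both strands, 4 times in Nr4a1, whose signals rose from 2976 and 2909.9 to 7977 and 8324, and 2 times each in Egr1, Egr4, Dnajb1, Coq10b and Cxcl1. The whole CRE was in Ppp1r15a alone (1.83% of all promoters), and an AP-1 site was in Ppp1r15a alone (7.33%). The heat shock element was in 4 of 18 (15.9% of all promoters): Hspb1, Dnajb1, Ptgs2 and, around its start site, Hnrnpa2b1. Hspa1a, whose promoter was also among the 18, had no match to it in this window. A CArG box, the binding motif of SRF, was in Egr1 alone, 2 times (1.64% of all promoters), and an NF-kB site in Nr4a1, Cxcl1 and Egr4 (4.18%). These matches describe letters in a short window and were not tested. A called gene counted if any of its promoters in the table matched, while each share is over single promoters. The called genes and the table were not matched for base composition, so the shares are no measure of enrichment.

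Below the threshold, the 15 genes with the smallest p among those higher and not called included members of the groups already described. Ier5, Cited2, Zfp36l1, Ier3, Cryab, Hmox1, Gadd45g, Adamts1 and Egr2 are described with their groups. Tob1, an antiproliferative partner of the deadenylase complex, gave 1992 and 1881 after sham and 3289 and 4531 after MCAO (0.88, adjusted p = 0.113). Sat1, which breaks down spermidine and spermine, gave 10379 and 9802 after sham against 14342 and 15308 after MCAO (0.54, adjusted p = 0.117). Peli1, a ubiquitin ligase of Toll-like receptor signalling, gave 2454 and 2421 after sham against 4277 and 3737 after MCAO (0.64, adjusted p = 0.159). Mgll, the lipase that hydrolyses the endocannabinoid 2-arachidonoylglycerol, gave 2394 and 2471 after sham against 4384 and 3773 after MCAO (0.66, adjusted p = 0.0883), but its sham candesartan pools stood as high, at 4001 and 4208. Tmem138, a ciliary membrane protein, had the same form, 1308 and 1438 after sham against 2368 and 2616 after MCAO with vehicle and 2399 and 2288 in the sham candesartan pools. Tom1l2, an endosomal sorting protein, gave 3357 and 4031 after sham against 5529.9 and 6741 after MCAO (0.68, adjusted p = 0.123). All 15 were called when only the 4 vehicle arrays were fitted.

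**Figure D3:**
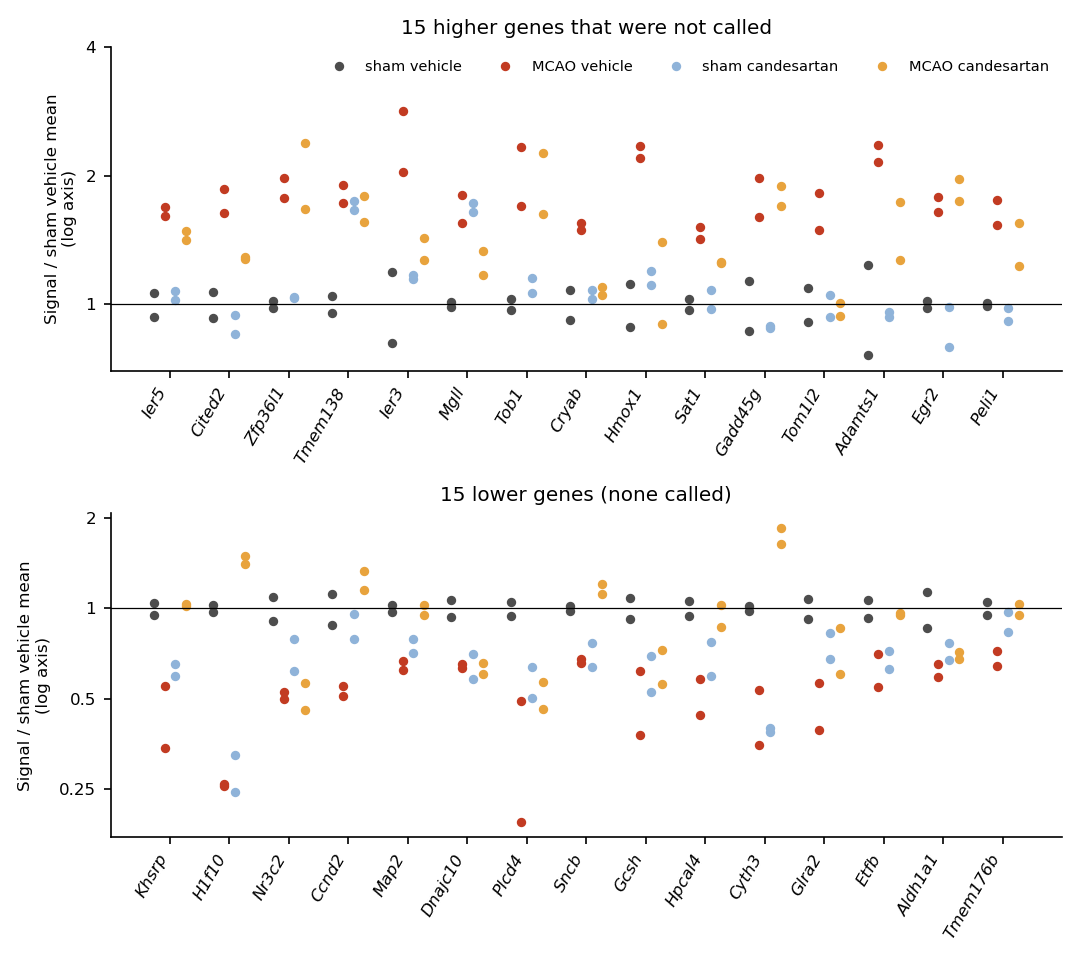
Signal of every pool divided by the mean of the sham vehicle pools (log axis) for the 15 higher genes that were not called (upper panel) and the 15 lower genes (lower panel), 2 pools per group, coloured by group. The choice of the genes fixes the side of the sham vehicle pools on which the MCAO vehicle pools lie, above in the upper panel and below in the lower.

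On the lower side no gene was called by limma in the fit to 8 arrays. The 15 named genes with the smallest p among those lower in both MCAO pools included Khsrp, an RNA-binding protein that promotes decay of AU-rich transcripts, with 2091 and 2294 after sham and 754 and 1211 after MCAO (-0.94 ± 0.17, adjusted p = 0.0755). H1f10, a linker histone, gave 981 and 928 after sham against 248 and 244 after MCAO (-1.10 ± 0.21, adjusted p = 0.0852). Nr3c2, the mineralocorticoid receptor, gave 3313 and 2751 after sham against 1512 and 1604 after MCAO (-0.81 ± 0.16, adjusted p = 0.0951). Each of these was lower in both MCAO pools than in either sham pool, and none passed the threshold. Ccnd2, a D-type cyclin, gave 2618 and 2062 after sham against 1200.3 and 1295 after MCAO (-0.74, adjusted p = 0.134). Map2, the dendritic microtubule protein, gave 3796 and 3620.3 after sham against 2312 and 2472 after MCAO on one probe set (-0.56, adjusted p = 0.159) and 22070.4 and 20046 after sham against 19380.1 and 18432 after MCAO on its brightest (-0.15, adjusted p = 0.895). Plcd4, a phospholipase C, had uneven MCAO pools, 267 and 676 against 1304 and 1450.2 after sham (-1.10, adjusted p = 0.18). Sncb, beta-synuclein of presynaptic terminals, gave 5585 and 5832 after sham against 3869 and 3755 after MCAO (-0.54, adjusted p = 0.182). Dnajc10, Gcsh, Hpcal4, Cyth3, Glra2, Etfb, Aldh1a1 and Tmem176b completed the set, with differences between -0.89 and -0.51.

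The sham candesartan rats were also operated on without occlusion, and their values for these 15 genes are set beside the others. For 13 of the 15 both sham candesartan pools lay below both sham vehicle pools, against 14.9% of all probe sets, and for Ccnd2 and Tmem176b they overlapped. The genes were chosen for sham vehicle signals above the MCAO vehicle signals, a choice that favours such an order, so the count is given as a description only. For H1f10 the sham candesartan pools, at 234 and 309.9, were close to the MCAO vehicle pools, and for Khsrp they were 1310.2 and 1430.2. For Nr3c2 they were 2397 and 1871, between the sham and the MCAO vehicle pools. The part of the pretreatment in these values was not tested. In the candesartan arrays MCAO minus sham was above 0 for 10 of the 15, against 44.7% of all probe sets (median 0.36, against -0.75 with vehicle).

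Fitting only the 4 vehicle arrays, which uses the smaller spread of these pools and 2 residual degrees of freedom, placed 23 probe sets below the threshold on the lower side, 18 of them named genes and 8 of them among the 15 just described. The genes given next were chosen after their values were seen. Slc1a3, the astrocytic glutamate transporter, fell in this fit, from 26572 and 30710.3 to 17296 and 21238 (difference -0.57, adjusted p = 0.0464, against 0.441 with all arrays). Agt, angiotensinogen, which astrocytes make in the brain, fell from 8797 and 10142 to 5815 and 6158 (-0.63, adjusted p = 0.0238, against 0.528). Aqp4, the astrocytic water channel, fell on the dimmer of its probe sets, from 3908 and 3515 to 2213 and 2365 (-0.62, adjusted p = 0.0385, against 0.311), while its brighter one went from 20673 and 18876 to 15414 and 16316. Th and Slc6a3, the rate-limiting enzyme of dopamine synthesis and the dopamine transporter, are markers of midbrain dopamine neurons. Th fell from 2519.5 and 2694 to 1302 and 1464 (-0.76, adjusted p = 0.0221, against 0.682), and Slc6a3 from 2778 and 2201 to 899 and 1366 (-0.94, adjusted p = 0.0364, against 0.379). The sham candesartan pools were far apart from each other for both genes, at 2288 and 737 for Th and 2014 and 949 for Slc6a3. Col1a2, a collagen of fibroblasts and meninges, was likewise uneven, 2996 and 2508 after sham against 1464 and 1405 after MCAO with vehicle and 3625 and 1579.7 in the sham candesartan pools. How much midbrain or meninges each tissue segment held was not measured.

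**Figure D4:**
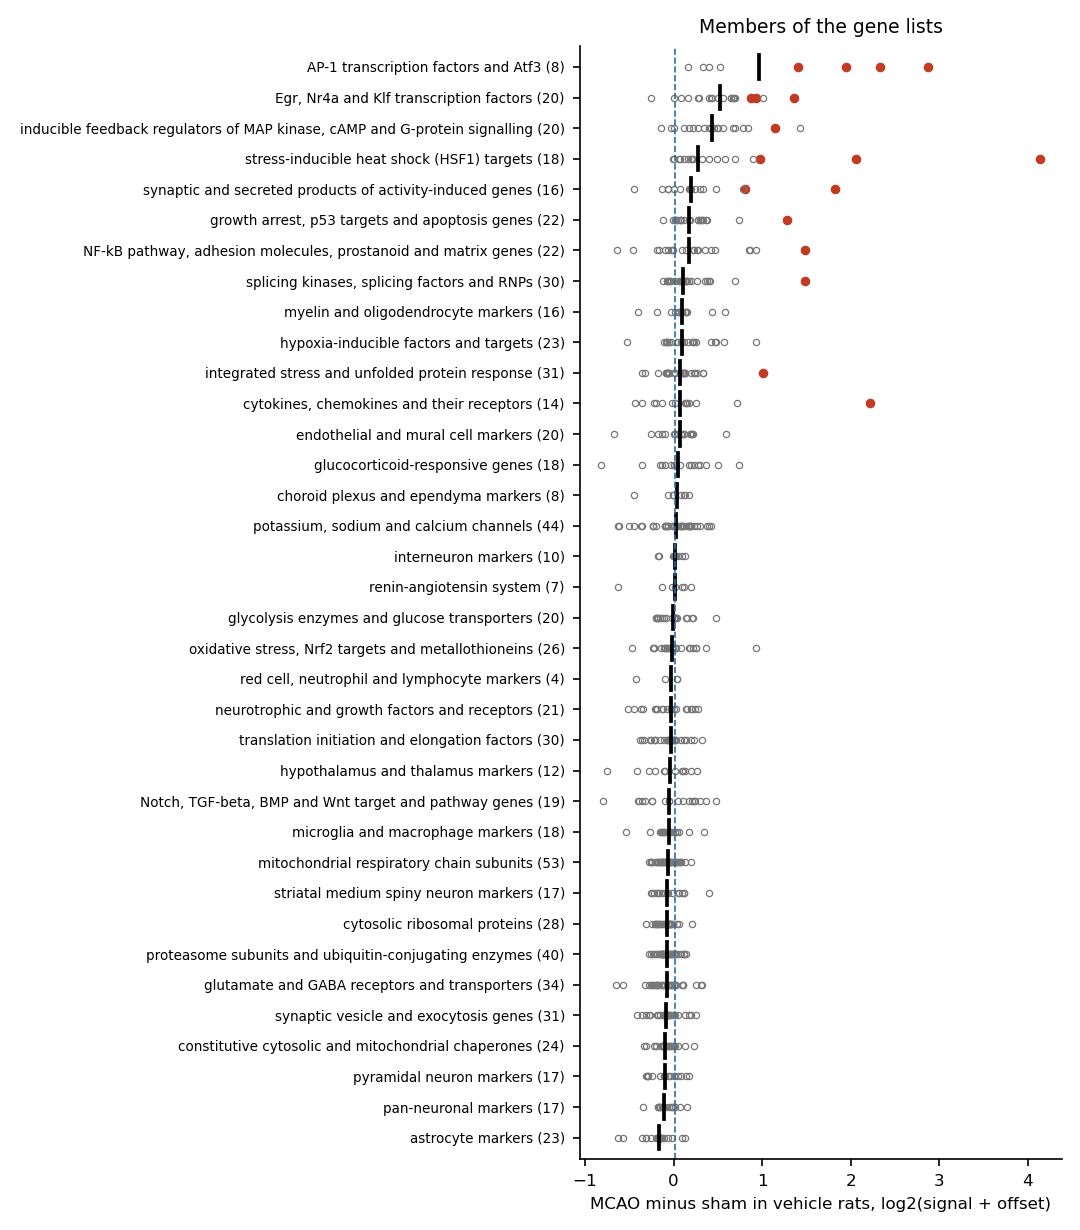
MCAO minus sham difference in vehicle rats, log2(signal + 369.9), for each tested member of 36 gene lists (number tested in brackets), ordered by the list median (black bar); filled red circles were called by limma, open circles were not, and the dashed line is the median of all probe sets. The medians run from 0.96 for AP-1 factors to -0.16 for astrocyte markers.

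Large housekeeping sets lay slightly below 0, in the direction opposite to the early genes. None of their members was called by limma, where 0.262% of all probe sets were. Of 28 cytosolic ribosomal proteins 25 were below 0, 12 had MCAO pools below and 2 above the sham pools, and the median was -0.08. At an unadjusted p under 0.05 it was 1 lower and 0 higher, and this was Rplp0, of the ribosomal stalk, at 16624 and 17059 after sham against 13199 and 13787 after MCAO (-0.31, adjusted p = 0.644). Of 30 translation factors 12 lay below and 5 above without overlap, 2 were lower and 0 higher unadjusted, and the median was -0.03. Eef1a1, the elongation factor that brings tRNA to the ribosome, gave 71605 and 70274 after sham against 54071 and 56614 after MCAO (-0.36, adjusted p = 0.542). Of 53 respiratory chain subunits 23 lay below and 4 above without overlap, with a median of -0.06 and 0 in either direction at an unadjusted p under 0.05. Ndufb6, a complex I subunit, gave 9579.5 and 8647 after sham against 7625 and 7290.1 after MCAO (-0.28). Of 40 proteasome and ubiquitin-conjugating genes 15 lay below and 3 above, with a median of -0.08. Psmc3, a proteasome ATPase, gave 8945 and 9048 after sham against 7868 and 6894 after MCAO (-0.28, adjusted p = 0.654). The medians of these 4 lists kept their sign in all 11 recomputed settings, but their sizes moved. The values nearest 0 were -0.020 (ribosomal), -0.015 (translation), -0.009 (respiratory chain) and -0.061 (proteasome). All 4 medians were above 0 in candesartan rats. There MCAO minus sham had medians of 0.11 (ribosomal), 0.003 (translation), 0.10 (respiratory chain) and 0.04 (proteasome). The difference between the pretreatments was not tested for the lists. Signals were scaled to a common trimmed mean, so a level here is a share of the array's total and not an amount of RNA per cell.

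Neuronal genes had small differences, and no member of their lists was called, where 0.262% of all probe sets were. Of 17 pan-neuronal markers 0 were called by limma, 1 was lower and 0 higher at an unadjusted p under 0.05, 6 had MCAO pools below and 2 above the sham pools, and the median was -0.11. Dlg4, the postsynaptic scaffold, gave 4589.5 and 4856 after sham against 4246 and 3125 after MCAO (-0.34, adjusted p = 0.649). Of 31 synaptic vesicle genes 0 were called, with 1 lower and 0 higher unadjusted and a median of -0.08. Syn2, a synapsin that tethers vesicles, gave 6565 and 5999.8 after sham against 4658 and 4562 after MCAO (-0.42, adjusted p = 0.503). Of 34 glutamate and GABA receptors and transporters 0 were called (1 higher and 1 lower unadjusted) and 13 lay below and 3 above without overlap. Grm5, a metabotropic glutamate receptor, gave 842 and 588 after sham against 346 and 292 after MCAO (-0.65, adjusted p = 0.705). Among 44 ion channels 0 were called, 2 were higher and 3 lower unadjusted, and the median was 0.03. The filter was passed only through the MCAO vehicle arrays by 1 of the 44. Kcnd3, an A-type potassium channel, gave 3115 and 1716 after sham against 1568 and 1226 after MCAO (-0.62), with sham pools far apart from each other. Markers of pyramidal neurons (17 tested, median -0.10), striatal medium spiny neurons (17, median -0.07) and interneurons (10, median 0.02) had 0 called by limma and 0 higher at an unadjusted p under 0.05, and the pyramidal list had 1 lower. Markers of hypothalamus and thalamus (12, median -0.04) had 0 called and 0 in either direction unadjusted.

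Among glial and vascular markers the astrocyte list was the lowest of the 36. In all, 21 of 23 tested markers were below 0, 17 had MCAO pools below the sham pools and 0 above, and the median was -0.16. None was called by limma in the fit to 8 arrays, and 3 were lower and 0 higher at an unadjusted p under 0.05. These were Slc1a3, Agt and Gjb6, the last a gap junction protein of astrocytes at 3548 and 3309 after sham against 2514 and 2678 after MCAO (-0.36, adjusted p = 0.572). Gfap, the intermediate filament of astrocytes, gave 21677 and 21576 after sham against 18921 and 19759 after MCAO (-0.16 ± 0.20, adjusted p = 0.94). The median of this list was -0.18 and -0.19 in the MCAO pools relative to the sham vehicle mean, and 0.05 and -0.12 in the sham candesartan pools. In the MCAO candesartan pools it was -0.28 and 0.08, and MCAO minus sham with candesartan had a median of 0.001. What part of the lower signals of Slc1a3, Agt and Aqp4 goes with the list as a whole was not tested. In bulk tissue, fewer cells of a type and less RNA per cell cannot be told apart. Of 16 myelin and oligodendrocyte markers 5 lay above and 0 below without overlap, with a median of 0.09. Relative to the sham vehicle mean their median was -0.002 in MCAO pool 1 and 0.17 in MCAO pool 2, and 0.10 and -0.04 in the sham candesartan pools, so it rested on MCAO pool 2. Aspa, an enzyme of myelin lipid supply, gave 1920.1 and 2049 after sham against 3089 and 3191 after MCAO (0.58, adjusted p = 0.17), and Mag, a myelin adhesion protein, 15969 and 13902 after sham against 18849.7 and 21722 after MCAO (0.43, adjusted p = 0.764). Of 18 microglia and macrophage markers 0 were called and 2 were lower unadjusted, with a median of -0.05. P2ry12, the purinergic receptor of resting microglia, gave 2836 and 2924 after sham against 2220.1 and 1569.7 after MCAO (-0.54, adjusted p = 0.441). Endothelial and mural markers had a median of 0.07 over 20 tested, with 0 called by limma and 1 higher and 1 lower unadjusted. Tie1, an endothelial receptor, gave 581 and 473 after sham against 1099 and 866 after MCAO (0.59, adjusted p = 0.551). Tie1 was among 2 of the 20 that passed the filter only through the MCAO vehicle arrays. Choroid plexus and ependyma markers had a median of 0.04 over 8 tested, with 0 called by limma and 0 unadjusted in either direction. Of the blood cell markers 4 passed the filter, none was called by limma and 0 had an unadjusted p under 0.05 in either direction, and Hbb, a globin of red cells, had overlapping pools (88819.5 and 98081 after sham against 84227 and 90920.2 after MCAO).

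Hormone, growth factor and developmental pathways had no called member, where 0.262% of all probe sets were called. Per2, a clock gene that glucocorticoids and CREB induce, gave 1209 and 1592 after sham against 2026 and 3235 after MCAO (0.74, adjusted p = 0.326), and Cebpd, a bZIP factor of the acute phase, differed by 0.50 (adjusted p = 0.559). Of 18 glucocorticoid-responsive genes 0 were called, 4 were higher and 2 lower unadjusted, and the median was 0.05. Of 7 renin-angiotensin genes that passed the filter, of 13 on the array, 0 were called and Agt was the only one under 0.05 unadjusted. Of 21 neurotrophic and growth factor genes 0 were called and 0 had an unadjusted p under 0.05 in either direction. Of 19 Notch, TGF-beta, BMP and Wnt genes 0 were called, 1 was higher and 3 lower unadjusted, and the median was -0.05. The filter was passed only through the MCAO vehicle arrays by 1 of the 19. Hes5, a Notch target of progenitors and glia, gave 509 and 1411 after sham against 399.9 and 301 after MCAO (-0.80 ± 0.35, adjusted p = 0.679), with sham pools far apart from each other.

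The same operation in candesartan rats used none of these 4 arrays, but its arrays entered the spread by which the 27 probe sets were called. Of these 27, all 27 were above 0 there, against 44.7% of all probe sets. As 6 of the 27 passed the signal filter through MCAO arrays alone, their signs there are given as a description only. Both MCAO pools lay above both sham pools for 25 of the 27, against 1738 of all 10310. The median of the 27 was 1.11, against 1.28 with vehicle. Of the 15 higher genes not called, 11 were above 0 (median 0.43, against 0.71). Both sets were chosen by their vehicle differences, a choice that favours larger medians with vehicle, so these medians are given as a description only. The sizes differed between members. The MCAO candesartan pools differed more from each other than those of any other group (median 0.23, log2, absolute). The treatment protocol of pool 2 named no pretreatment. Fos was 755 and 852 after sham and 6332 and 7695 after MCAO with candesartan (2.65, against 2.87 with vehicle), and Arc 1471 and 1549.7 after sham and 5802 and 7230.3 after MCAO (1.86, against 1.82). Hspa1a went from 1284 and 1147 to 5794 and 14082 (2.58 against 4.14), and Hspb1 from 733 and 743 to 1273 and 888 (0.38 against 2.05). For Hspb1 the MCAO pools with candesartan lay below those with vehicle, and the test of the difference between the pretreatments gave an adjusted p of 0.16. For Hspa1a it gave 0.458. That test, the interaction of operation and pretreatment, called 2 probe sets (0.0194%), H1f10 and Cyth3, neither of them among the 27, and 914 had an unadjusted p under 0.05.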

How the data were processed

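RNA of 8 pools of 2 rats each, 2 pools in each of 4 groups, was hybridised to Affymetrix RAE 230A arrays. The deposited values are linear signal intensities, 1 per probe set, which the authors made with GCOS per the submitters' processing notes; the sources used here give no version or settings. The arrays share a trimmed mean near 2500, so levels are relative to each array, and depth has no meaning here beyond the number of arrays. From 15923 probe sets, 57 controls were left out. Signals were taken as log2(signal + 369.9) (20th percentile), and 10310 probe sets above 916.3 (40th percentile) on at least 2 of 8 arrays were tested with limma 3.58.1 in R 4.3.3 (4 group means, eBayes with trend, Benjamini-Hochberg). Of all probe sets 12789 had 1 gene symbol and 312 several, and 12754 symbols matched RefSeq. A list counts each gene by its brightest probe set.

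The members, the 36 gene lists and the rules were chosen with earlier results of these data known. Named genes were all called genes, up to 4 members per list with the smallest p, the 15 lower and the 15 higher uncalled genes with the smallest p, and a fixed set; others are said to be chosen after their values were seen. Alternatives were other filters, offsets, normalizations, variance models, array weights, a replicate block, subsets of arrays and leaving out each array. The scripts were tested on simulated data. Pools were treated as unpaired. Correlations of the deviations of pools with equal numbers ran from -0.0951 to 0.137 over all probe sets. These values cannot exclude pairing that acts on some genes only.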

Additional observations from a re-analysis of the deposited data

Results flagged for a closer look

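The effect of MCAO differed between candesartan and vehicle rats for 2 genes in limma's test of that difference (interaction). Neither was called without a filter, with a filter at the 60th percentile, with an offset of 32, with the replicate block or in 6 of 8 fits with an array left out. For H1f10, a linker histone, signals with vehicle were 981 and 928 after sham and 248 and 244 after MCAO, and with candesartan 234 and 310 after sham and 1422 and 1337 after MCAO. Its effect with candesartan minus that with vehicle was 2.55 (log2, adjusted p = 0.0217). For Cyth3, an exchange factor for ARF GTPases, the vehicle signals were 1161 and 1118 after sham and 399.9 and 610.4 after MCAO, and the candesartan signals 457 and 443 after sham and 1873 and 2108 after MCAO. Its difference was 2.32 (adjusted p = 0.0217). In both genes the sham candesartan pools lay below the sham vehicle pools.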

How the results depend on the processing

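No called gene or count of calls changed direction under an alternative, but some list medians near 0 did. Against 27 probe sets higher and 0 lower with vehicle, 25 changed with candesartan and 2 with a differing effect, the counts moved as follows. Fitting only the 4 vehicle arrays gave 70 higher and 23 lower, and fitting only the 4 candesartan arrays gave 11. Without a filter it was 12 higher, 16 with candesartan and 0 differing, and a filter at the 60th percentile or an offset of 32 left 0 differing. Median-centred arrays gave 2 lower, and quantile normalization, cyclic loess and eBayes without trend gave 1 lower each. Median centring moved the median of all probe sets to -0.056. Array weights gave 83 higher, 21 lower and 13 with candesartan. With the replicate block it was 22 higher, 0 lower, 22 with candesartan and 0 differing. Leaving out each array in turn gave 7 to 41 higher, 0 to 2 lower, 5 to 835 with candesartan and 0 to 296 differing; 835 and 296 came without MCAO candesartan pool 1. Leaving out both MCAO candesartan arrays, chosen after seeing the data, gave 38 higher, among them all 27, and 2 lower. The causes were not tested. Of 396 recomputed list medians 39 differed in sign, in 16 of the 36 lists, most often the renin-angiotensin (7 of 11), choroid plexus (5), interneuron (4) and Notch, TGF-beta and Wnt lists (4), so these medians have no settled sign. With 2 pools a group, the number of arrays limits the precision.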
